A study of Rattus norvegicus with 21 samples.

Results

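The genes described here were 8 complement genes of the rat: C3, the 3 chains of C1q (C1qa, C1qb and C1qc), the classical-pathway protease C1s, factor B (Cfb), C2, and the C1 inhibitor gene Serping1. They were listed by name, with earlier results of these data known. Each was to be read through the probe sets that carry its symbol alone, the brightest over all arrays leading. On the Affymetrix rat array used 6 of the 8 genes had such a probe set, 1 each, among 14217 genes with one. Cfb and C2 had none, because the 4 probe sets annotated to them carry both symbols, and those 4 are described together below and credited to neither gene.

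The samples were forebrain astrocytes of Sprague Dawley rats in 7 groups of 3 arrays, each array labelled a biological replicate. Freshly isolated cells came from rats of postnatal day 1 (fresh P1) or 7 (fresh P7) and were purified by immunopanning on an antibody to ITGB5, an integrin subunit. Panned cells were also grown for 7 days with the growth factor HBEGF at 5 ng/ml and no serum (HBEGF P1 and HBEGF P7), or for 7 days in medium with 10% foetal calf serum (serum P7). In a further group the serum cultures were washed after 7 days and kept for another 7 days in HBEGF without serum, at a dose that the labels do not give (withdrawn P7). The MD group held astrocytes of postnatal day 1 that were not panned but prepared by the older McCarthy and de Vellis method, and grown for 7 days in 10% serum. No animal was treated or mutant. The withdrawn P7 cultures differed from the serum P7 cultures in age as well as in medium, being longer in culture, so those factors cannot be told apart. From the HBEGF P7 cultures they differed in earlier serum and also in time in culture, which cannot be told apart either. One field of the HBEGF P7 labels reads postnatal day 1 while titles and sources read day 7, and the titles were followed.

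Complement is a cascade of plasma proteins that marks surfaces for uptake by phagocytes. The classical pathway starts when C1q, built from the products of C1qa, C1qb and C1qc, binds a target and activates the proteases C1r and C1s. C1s cuts C4 and C2, whose fragments form an enzyme that cleaves C3, and factor B forms the equivalent enzyme of the alternative pathway. Serping1 encodes the inhibitor that removes C1r and C1s from active C1. In the brain microglia are the usual source of C1q, whereas astrocytes can make C3 and the other early components. C1q and C3 also tag synapses for removal by microglia during development.

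The promoters of 3 of the 8 genes were in the RefSeq table used here (build GRCr8), and they are shown because C3 and the C1q chains followed different patterns across the same arrays. Each line gives the 250 bases before the transcription start, 5′ to 3′ on the gene's strand, with matches to 5 searched motifs in capitals. The C3 promoter lies at chr9:2201340-2201589, the C1qa promoter at chr5:154419934-154420183 and the C1qb promoter at chr5:154407828-154408077, all on the minus strand.

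C3: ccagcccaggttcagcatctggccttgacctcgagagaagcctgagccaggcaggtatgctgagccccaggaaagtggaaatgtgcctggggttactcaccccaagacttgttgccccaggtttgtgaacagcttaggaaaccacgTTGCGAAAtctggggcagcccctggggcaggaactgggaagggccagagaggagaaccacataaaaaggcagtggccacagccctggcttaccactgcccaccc

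C1qa: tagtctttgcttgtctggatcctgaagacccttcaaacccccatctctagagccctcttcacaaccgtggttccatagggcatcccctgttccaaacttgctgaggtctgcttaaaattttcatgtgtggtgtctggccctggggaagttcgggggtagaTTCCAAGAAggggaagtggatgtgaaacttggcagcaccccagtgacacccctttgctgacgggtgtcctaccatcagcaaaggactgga

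C1qb: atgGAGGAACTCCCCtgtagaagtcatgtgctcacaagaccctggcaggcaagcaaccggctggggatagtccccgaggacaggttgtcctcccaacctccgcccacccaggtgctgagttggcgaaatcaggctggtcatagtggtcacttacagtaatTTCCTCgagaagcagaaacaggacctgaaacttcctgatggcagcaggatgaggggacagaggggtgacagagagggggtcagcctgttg

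The motifs were searched on both strands, and overlapping matches were kept. The C/EBP motif TTGCNNAA matched the C3 promoter from -104 to -97 relative to the start, and 9.2% of all 27457 promoters of the same length hold it. The GAS motif TTCNNNGAA, the type bound by STAT factors, matched the C1qa promoter from -90 to -82 and is found in 7.52% of promoters. The kappaB consensus matched the C1qb promoter from -245 to -236 and is found in 6.41% of promoters. The PU.1 motif GAGGAA, present in 23.2% of promoters, matched that of C1qb from -247 to -242, overlapping the kappaB match, and again from -90 to -85. The ISRE motif (consensus searched by name), present in 3.29% of promoters, matched none of the 3 windows. These matches describe letters only. In the same reference C1qb, C1qc and C1qa are consecutive genes on chromosome 5, C2 and Cfb neighbour each other on chromosome 20, and C1r and C1s neighbour each other on chromosome 4. C1qc, C1s, Cfb, C2 and Serping1 are named only.

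Values are log2 of the intensities deposited by the authors, so a difference of 1 is a 2-fold change. Array medians ranged from 128 to 146.3 on the linear scale, and Spearman correlations between arrays of a group from 0.963 to 0.9943 over 31042 probe sets. The lowest was between HBEGF P7 replicates 2 and 3, and those arrays also stood apart for the complement genes. Most results that turn on them are given below with all arrays and with at least 1 of them left out. Astrocyte markers were bright in every group, their mean log2 intensity lying between 11.2 in MD and 13.0 in fresh P7. A gene was called when its limma Benjamini-Hochberg adjusted p over all probe sets was under 0.05 and its log2 change at least 1. The labels do not say whether replicates came from separate animals or cultures, so p measures the spread between these samples. Whether more cells of a type or more RNA per cell lies behind a higher value cannot be told apart in bulk RNA.

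All 6 genes had their highest group mean in the cultures that had been in serum and then in HBEGF, and for C3, C1s and Serping1 those arrays lay above all others. The C1q arrays of that group overlapped HBEGF P7, and for C1qb and C1qc also fresh P7. From serum P7 to withdrawn P7 all 6 measured genes rose, where 2.24% of all genes were called higher and 4.5% in either direction. For each of the 6 every withdrawn array lay above every serum array, as held for 16.6% of genes. Their median change was 3.92 on the log2 scale, against 0.02 over all genes. Against HBEGF P7, grown in HBEGF alone, withdrawn P7 was again higher for 6 of 6 genes (background 6.29% higher, 11.7% either way), with a median change of 3.10. Against fresh P7 it was higher for 5 of 6 (background 11.1% higher, 22.1% either way), and the sixth, C1qb, had an adjusted p of 0.0513. Arrays did not overlap for 3 of 6 genes against HBEGF P7 and for 4 of 6 against fresh P7. The share of all genes without overlap is not given for these comparisons, so those counts are description only. These 3 comparisons share the withdrawn P7 arrays and are not independent of each other. In a fit on the withdrawn P7 and HBEGF P7 arrays alone 1 of the 6 calls remained, that of C3 (limma adjusted p = 0.0457).

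The other comparisons moved fewer of these genes. HBEGF P7 exceeded fresh P7 for C3, C1s and Serping1, so that 3 of 6 were called higher beside a background of 4.78% higher and 10.3% either way. On the arrays of these groups alone none of those 3 was called by limma, the adjusted p being 0.109 for C3, 0.158 for C1s and 0.13 for Serping1. Serum P7 exceeded fresh P7 for C1s (background 9.12% higher) and was lower for C1qa (background 9.04% lower, 18.2% either way). MD exceeded fresh P1 for Serping1 alone (background 10.1% higher, 19.6% either way), and serum P7 exceeded MD for C1s alone (background 7.58% higher, 13.9% either way).

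By limma 0 of 6 were called from fresh P1 to fresh P7 (background 1.55%), and 0 reached an unadjusted p under 0.05. Backgrounds in this paragraph are the shares of all genes called in either direction. No share of all genes at an unadjusted p is given, so the unadjusted counts are description only. From fresh P1 to HBEGF P1 the count was 0 (background 8.87%), with 2 at an unadjusted p under 0.05. Between the HBEGF cultures of the 2 ages it was 0 (background 1.11%), with 1 unadjusted. MD against HBEGF P1 gave 0 (background 18.4%) and 0 unadjusted, and serum P7 against HBEGF P7 gave 0 (background 9.3%), with 1 unadjusted. A test of whether the response to HBEGF culture differed between the ages called 0 (background 0.816%), with 0 unadjusted. The test of whether serum against HBEGF differed between the MD and panned preparations called 0 (background 11.3%), with 0 unadjusted. No MD culture was grown in HBEGF, so its MD side set unpanned MD cells against panned HBEGF P1 cells. The sides also differ in age, P1 against P7, so preparation, medium and age cannot be told apart in it.

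**Figure D1:**
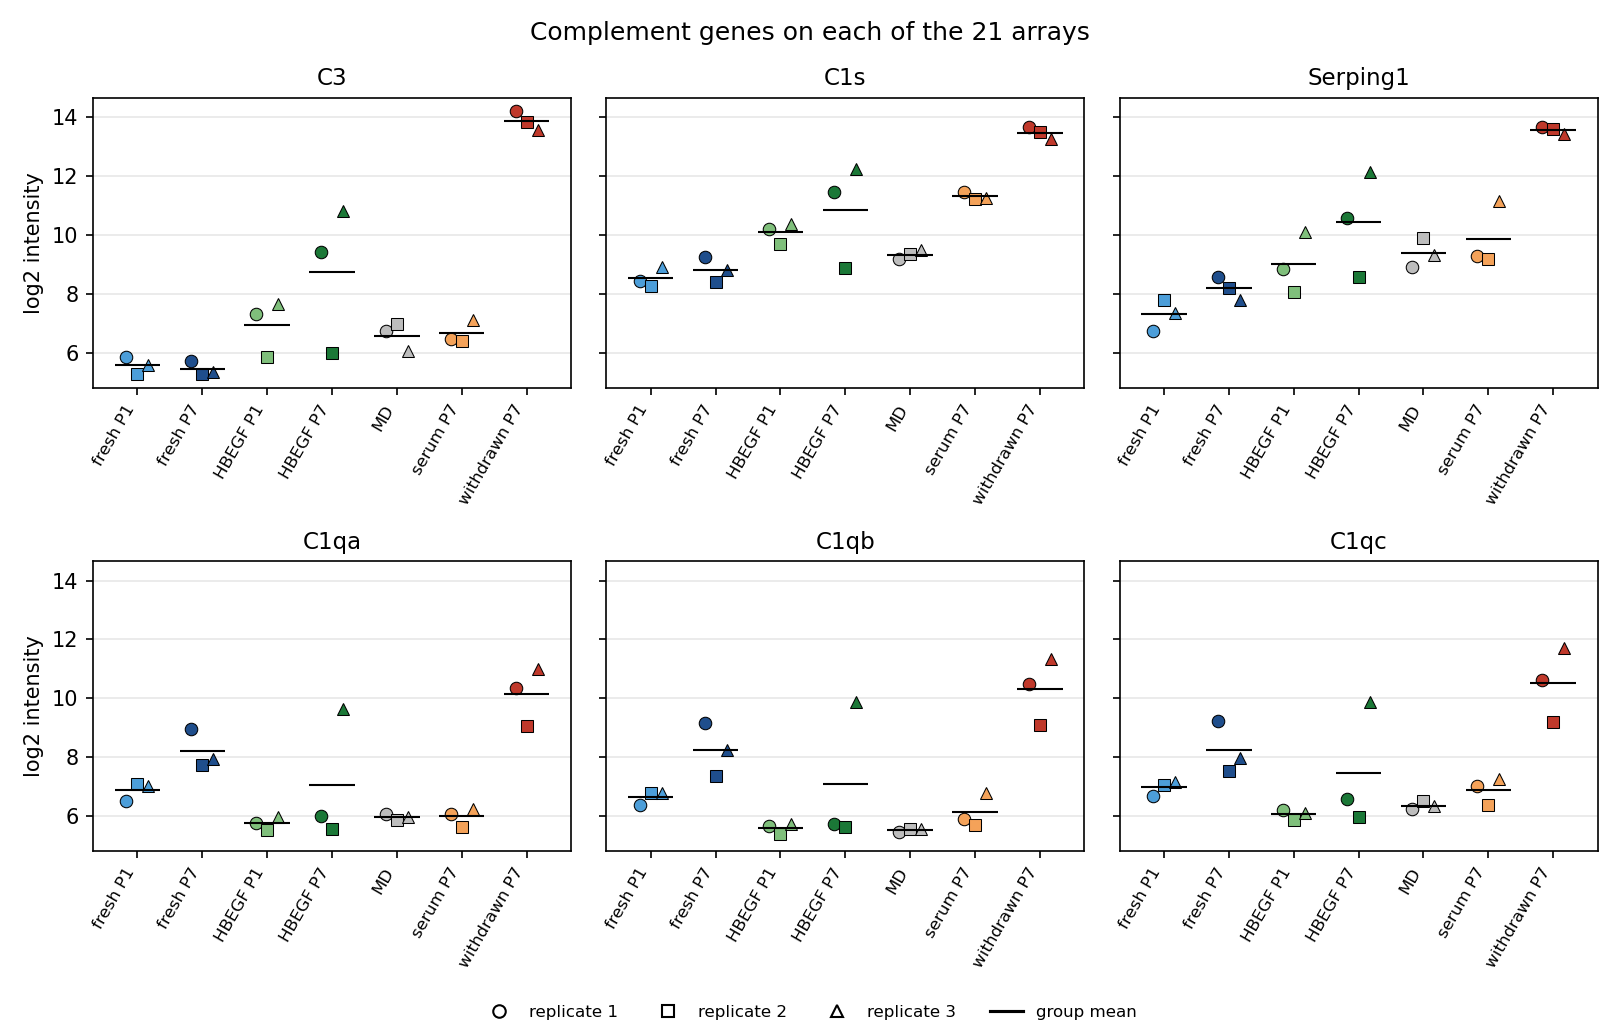
Log2 intensity (vertical axis) of the 6 complement genes with a probe set of their own on each of the 21 arrays, by group; circles, squares and triangles are replicates 1, 2 and 3 and bars are group means. C3, C1s and Serping1 stand at 13.28 or above on all 3 withdrawn P7 arrays, and the C1q chains are also high on HBEGF P7 replicate 3.

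C3, the component on which all pathways converge, changed most. In fresh P1 cells the replicates 1, 2 and 3 read 5.86, 5.29 and 5.60, and in fresh P7 cells 5.73, 5.27 and 5.35. Fresh astrocytes of both ages were thus at the dim end of the range, and their values overlapped. HBEGF P1 read 7.34, 5.87 and 7.65, and HBEGF P7 read 9.41, 5.99 and 10.81. In each HBEGF group replicate 2 lay far below the other replicates, close to the fresh cells. MD read 6.73, 6.99 and 6.06, and serum P7 read 6.49, 6.42 and 7.11. These serum-grown groups overlapped each other and lay above all fresh arrays. Withdrawn P7 read 14.22, 13.84 and 13.59, with a spread (SD 0.32, n = 3) far under its distance from any other array.

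C3 in withdrawn P7 exceeded serum P7 by 7.21 ± 0.78 (log2, SE), a 148-fold difference (limma adjusted p = 6e-05). Over HBEGF P7 the excess was 5.14 ± 0.78, or 35.4-fold (adjusted p = 0.000246), and over fresh P7 it was 8.43 ± 0.78, or 345-fold (adjusted p = 2.6e-07). Each of these 3 calls held without any 1 array, although the excess over HBEGF P7 was 3.77 without its replicate 2 and 6.18 without its replicate 3. The fold depends on dim values in its denominator, and with 32 added to every intensity the change over fresh P7 was 7.64 rather than 8.43.

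HBEGF P7 exceeded fresh P7 in C3 by 3.29 ± 0.78 (adjusted p = 0.00528), higher on 3 of 3 arrays. Leaving out 1 array at a time moved this from 2.25 without HBEGF P7 replicate 3 to 4.66 without HBEGF P7 replicate 2, and on the arrays of these groups alone the adjusted p was 0.109. HBEGF P1 exceeded fresh P1 in C3 by 1.37 (95% interval -0.28 to 3.01, adjusted p = 0.267). The difference between those responses, 1.92 (95% interval -0.41 to 4.25, adjusted p = 0.548), was not called, but was 3.29 without HBEGF P7 replicate 2 (adjusted p = 0.0188). The HBEGF P7 minus HBEGF P1 difference of 1.78 (adjusted p = 0.388) became 3.16 without that array (adjusted p = 0.0022). Leaving out HBEGF P7 replicate 3, the highest array of that group, made both of these differences smaller instead.

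Serum P7 minus HBEGF P7 was -2.06 in C3 (95% interval -3.71 to -0.41, adjusted p = 0.0713). Without HBEGF P7 replicate 2 it was -3.44 (adjusted p = 0.000147). Serum P7 lay 1.22 above fresh P7 (95% interval -0.42 to 2.87, adjusted p = 0.239), and MD lay 1.01 above fresh P1 (95% interval -0.64 to 2.66, adjusted p = 0.339). MD minus HBEGF P1 was -0.36 (95% interval -2.01 to 1.29). The contrast of MD minus HBEGF P1 with serum P7 minus HBEGF P7 mixes preparation, medium and age. It was 1.70 (95% interval -0.63 to 4.03, adjusted p = 0.375) and 3.08 without HBEGF P7 replicate 2 (adjusted p = 0.00461). Leaving out HBEGF P7 replicate 3, the highest array of that group in C3, made this contrast and the serum P7 minus HBEGF P7 difference smaller in size instead.

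**Figure D2:**
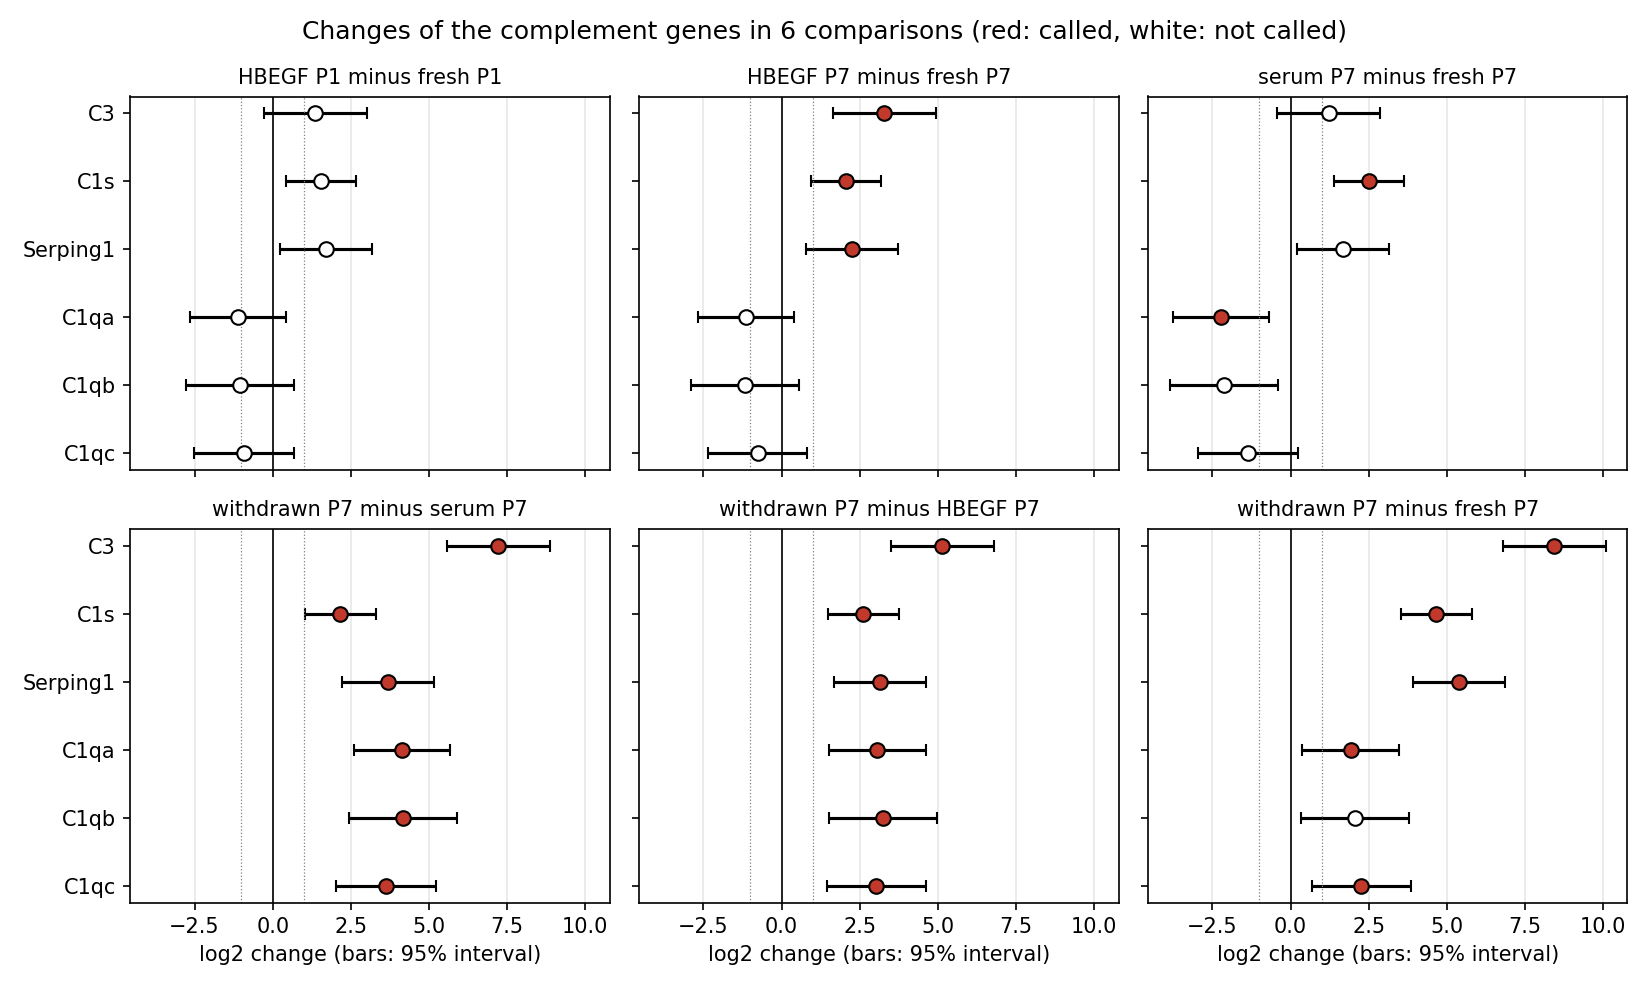
Log2 change (horizontal axis) of the 6 complement genes in 6 comparisons, with 95% intervals from limma; filled points were called and open points were not, and dotted lines mark a change of 1 either way. All 6 points are filled in withdrawn minus serum P7 and in withdrawn minus HBEGF P7, while in the HBEGF and serum comparisons with fresh cells the C1q chains lie left of 0 and the other genes right of it.

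C1s, the protease that cuts C4 and C2, had its lowest mean in fresh P1 and its highest in withdrawn P7. Fresh P1 read 8.46, 8.29 and 8.94, and fresh P7 read 9.25, 8.40 and 8.81. MD read 9.18, 9.35 and 9.49, overlapping fresh P7 only at its lower end. HBEGF P1 read 10.20, 9.72 and 10.38, and serum P7 read 11.47, 11.23 and 11.27. Every array of HBEGF P1 and serum P7 lay above every fresh and MD array. HBEGF P7 read 11.47, 8.90 and 12.24, its replicate 2 falling among the fresh P7 values. Withdrawn P7 read 13.66, 13.52 and 13.28, above all other arrays.

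Serum P7 exceeded fresh P7 in C1s by 2.50 ± 0.53 (limma adjusted p = 0.00135) and MD by 1.98 ± 0.53 (adjusted p = 0.0105), and both calls held without any 1 array. Withdrawn P7 exceeded fresh P7 by 4.67 ± 0.53, or 25.4-fold (adjusted p = 2.61e-06), and HBEGF P7 by 2.61 ± 0.53 (adjusted p = 0.00221). The call over HBEGF P7 was lost in the fit on the arrays of those groups alone. The excess of withdrawn P7 over serum P7 was 2.16 ± 0.53 (adjusted p = 0.0203), with the arrays of the groups apart. That last call was lost without serum P7 replicate 1 or 2 or withdrawn P7 replicate 1 or 2, the adjusted p reaching 0.0808, while the change stayed between 2.07 and 2.27.

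HBEGF P7 exceeded fresh P7 in C1s by 2.05 ± 0.53 (adjusted p = 0.00957). Without HBEGF P7 replicate 3 the change was 1.37 (adjusted p = 0.0543), without replicate 2 it was 3.04, and on the arrays of these groups alone the adjusted p was 0.158. HBEGF P1 exceeded fresh P1 by 1.54 (95% interval 0.41 to 2.66), with an adjusted p of 0.0522 that misses the threshold. The call was made with the replicate number as a block (adjusted p = 0.0295), with dim probe sets left out (0.0397) and on the arrays of these groups alone (0.00479). MD lay 0.78 above fresh P1 (95% interval -0.35 to 1.91), and MD minus HBEGF P1 was -0.76 (95% interval -1.88 to 0.37). HBEGF P7 minus HBEGF P1 was 0.77 (95% interval -0.35 to 1.90), and 1.76 without HBEGF P7 replicate 2 (adjusted p = 0.00292). Leaving out HBEGF P7 replicate 3, the highest array of that group, made this difference smaller instead.

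C1r, the protease that activates C1s and its neighbour on chromosome 4, was the gene most like C1s over the 21 arrays (Pearson r = 0.974, and 0.991 over the 7 group means). Its group means ran from 8.64 in fresh P1 through 9.60 in MD and 11.89 in serum P7 to 13.40 in withdrawn P7. C1r rose from fresh P7 to HBEGF P7 by 1.96 (adjusted p = 0.00773) and to serum P7 by 2.95 (adjusted p = 0.000157).

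Serping1, the inhibitor of these proteases, read 6.75, 7.81 and 7.36 in fresh P1 and 8.58, 8.21 and 7.79 in fresh P7. HBEGF P1 read 8.86, 8.07 and 10.10, and HBEGF P7 read 10.58, 8.60 and 12.13. The HBEGF arrays covered a wide range, with replicate 2 lowest and replicate 3 highest at each age. MD read 8.93, 9.89 and 9.33, and serum P7 read 9.28, 9.20 and 11.16. In serum P7 replicate 3 stood apart from the other replicates. Withdrawn P7 read 13.67, 13.62 and 13.45 (SD 0.12, n = 3), more than a log2 unit above any other array.

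Withdrawn P7 exceeded fresh P7 in Serping1 by 5.38 ± 0.70, or 41.7-fold (limma adjusted p = 1.02e-05). It exceeded serum P7 by 3.70 ± 0.70, or 13.0-fold (adjusted p = 0.0043), and HBEGF P7 by 3.14 ± 0.70 (adjusted p = 0.00386). These 3 calls held without any 1 array, but the call over HBEGF P7 was lost in the fit on the arrays of those groups alone.

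The smaller changes of Serping1 rested on fewer arrays. HBEGF P7 exceeded fresh P7 by 2.24 ± 0.70 (adjusted p = 0.0271), but missed the threshold when fresh P7 replicate 2 or 3, or HBEGF P7 replicate 1 or 3, was left out, down to 1.39 without the last (adjusted p = 0.152). MD exceeded fresh P1 by 2.08 ± 0.70 (adjusted p = 0.0264), with no overlap of the arrays. That call was lost without fresh P1 replicate 1 or 3 or MD replicate 2 or 3, with adjusted p up to 0.0997. HBEGF P1 lay 1.70 above fresh P1 (95% interval 0.23 to 3.17, adjusted p = 0.102), and serum P7 lay 1.69 above fresh P7 (95% interval 0.22 to 3.16, adjusted p = 0.0684). HBEGF P7 minus HBEGF P1 was 1.42 (95% interval -0.05 to 2.90).

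Factor B and C2 are homologous serine proteases that supply the catalytic part of the enzymes cutting C3. The shared probe set with the largest change read 5.54, 5.47 and 5.62 in fresh P1 and 5.71, 5.65 and 5.43 in fresh P7. Serum P7 read 6.96, 6.49 and 7.07, and HBEGF P7 read 7.12, 5.59 and 8.41. HBEGF P7 replicate 2 fell among the fresh values. In withdrawn P7 replicates 1 and 2 read 12.11 and 11.58 and replicate 3 was the lowest at 10.997, far above every other array of that probe set. The change from serum P7 to withdrawn P7 was 4.72 ± 0.45 for it (limma adjusted p = 1.82e-05), and 2.75 for the shared probe set that changed least (adjusted p = 7.85e-05).

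All 4 shared probe sets were called higher in withdrawn P7 than in serum P7 (background 2.24%), HBEGF P7 (6.29%) and fresh P7 (11.1%), and these calls held without any 1 array and on the compared arrays alone. All 4 were also called higher in HBEGF P7 than in fresh P7 (background 4.78%), by 1.16 to 1.64, with HBEGF P7 replicate 2 among the fresh arrays in 3 of the 4. Without HBEGF P7 replicate 3 limma called 0 of 4 (adjusted p from 0.0582 to 0.156), without any other 1 array 1 to 4, and on the compared arrays alone 0 (adjusted p from 0.139 to 0.205). Without HBEGF P7 replicate 2 all 4 were called, by 1.68 to 2.44. In serum P7 all 4 were higher than in fresh P7 (background 9.12%), by 1.07 to 1.57. Without serum P7 replicate 3 limma called 0 of them (adjusted p from 0.0556 to 0.106), without fresh P7 replicate 3 it called 1, and without any other 1 array 3 or 4. From MD to serum P7 1 of 4 was called (background 7.58%), by 1.09 (adjusted p = 0.033), and none without MD replicate 1 or 3 or serum P7 replicate 2 or 3. Which of Cfb and C2 these values reflect cannot be told apart from the annotation.

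**Figure D3:**
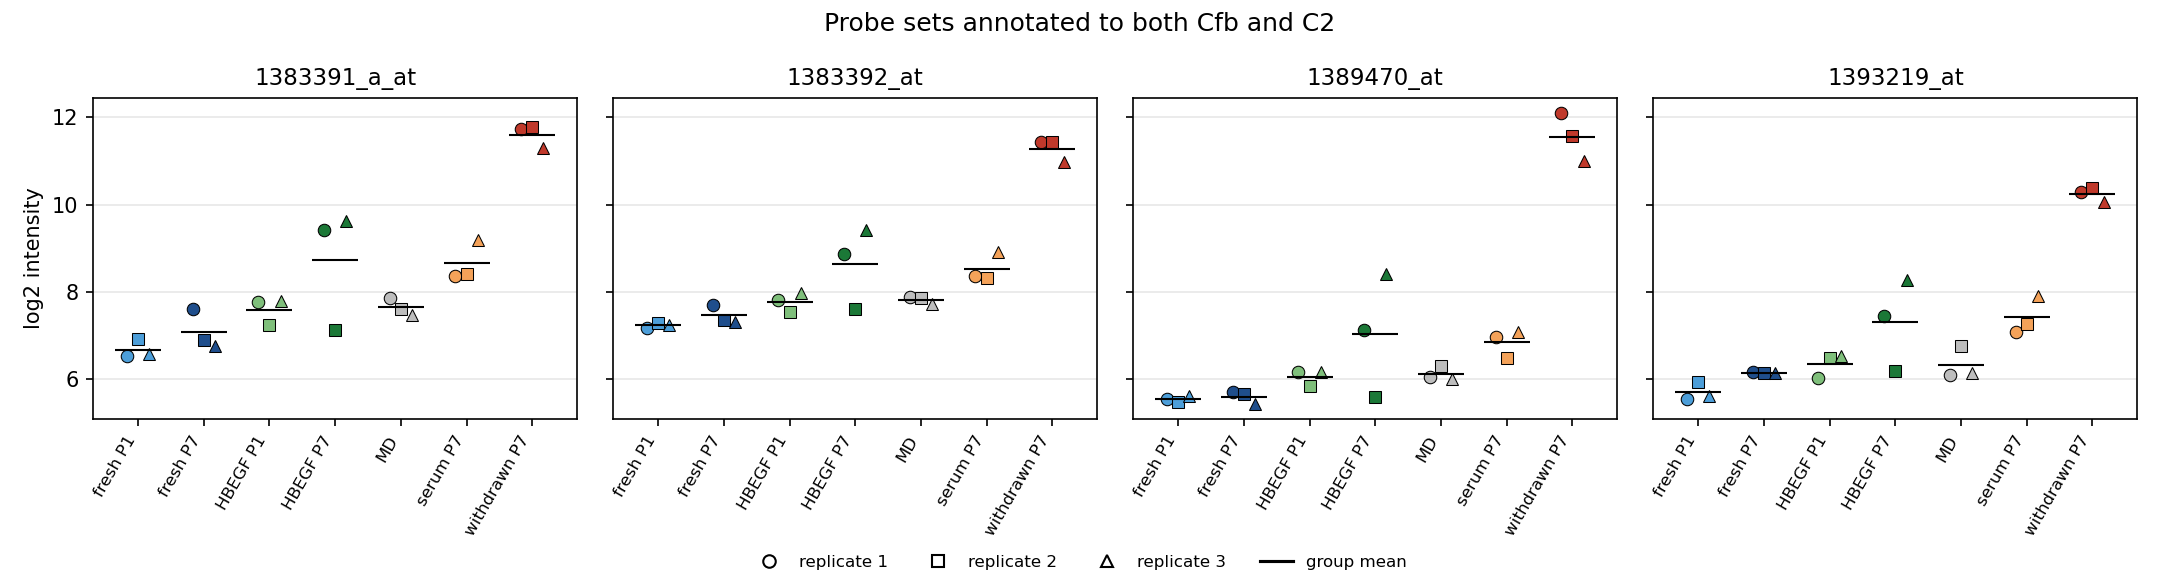
Log2 intensity (vertical axis) of the 4 probe sets annotated to both Cfb and C2 on each of the 21 arrays, by group; circles, squares and triangles are replicates 1, 2 and 3 and bars are group means. Withdrawn P7 lies above every other array in each panel, and the fresh groups have the lowest means.

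The C1q chains followed another course: they were higher in fresh P7 cells than in most cultures and returned in withdrawn P7. C1qa, the A chain, read 6.52, 7.09 and 7.01 in fresh P1 and 8.96, 7.73 and 7.95 in fresh P7. The fresh groups did not overlap for C1qa, C1qb or C1qc, 3 of 6 genes beside 16.1% of all genes, yet the change in C1qa of 1.34 (95% interval -0.20 to 2.88) was not called (limma adjusted p = 0.366). The change with age was 1.61 in C1qb (adjusted p = 0.327) and 1.27 in C1qc (adjusted p = 0.408).

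In culture C1qa read 5.77, 5.53 and 5.96 in HBEGF P1, 6.06, 5.85 and 5.98 in MD, and 6.08, 5.64 and 6.23 in serum P7. All 9 of these arrays lay below all 6 fresh arrays. HBEGF P7 read 5.996, 5.55 and 9.65, so that replicate 3 stood above the fresh P7 cells and the others with the cultures. Withdrawn P7 read 10.35, 9.06 and 10.98, above every other group's mean. HBEGF P7 replicate 3 read 9.88 in C1qb and 9.88 in C1qc, against 5.73 and 5.61, and 6.58 and 5.95, on the other replicates of that group.

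From fresh P1 to HBEGF P1 the arrays did not overlap for any of the 6 genes: C3, C1s and Serping1 lay higher (background 25.8%) and the C1q chains lower (background 18.4%). The C1qa change was -1.12 (95% interval -2.66 to 0.42, adjusted p = 0.346), the C1qb change -1.06 and the C1qc change -0.92. On the arrays of these groups alone C1qa (adjusted p = 0.00775) and C1qb (0.00474) were called lower. In MD the changes from fresh P1 were -0.91 in C1qa, -1.12 in C1qb and -0.61 in C1qc, and none was called. On the arrays of fresh P1 and MD alone C1qb was called lower (0.00108) and C3 higher (0.022).

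From fresh P7 to serum P7 the arrays again did not overlap for any gene, 3 higher (background 29.9%) and 3 lower (background 24.9%). C1qa fell by 2.23 ± 0.73 (adjusted p = 0.0238). That call was lost without fresh P7 replicate 1 or serum P7 replicate 2, the adjusted p reaching 0.096. The change was -2.13 in C1qb (adjusted p = 0.0512) and -1.36 in C1qc (adjusted p = 0.172). For C1qb it was called with dim probe sets left out (0.04), with a trended variance (0.0487) and on the arrays of these groups alone (0.0134).

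From fresh P7 to HBEGF P7 the changes were -1.15 in C1qa, -1.18 in C1qb and -0.77 in C1qc, with adjusted p of 0.303, 0.349 and 0.533. Without HBEGF P7 replicate 3 all 3 chains were called lower, by -2.44 in C1qa (adjusted p = 0.000699), -2.59 in C1qb (0.00196) and -1.97 in C1qc (0.0159). Leaving out HBEGF P7 replicate 2, the lowest array of that group, made each fall smaller instead.

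Withdrawn P7 exceeded serum P7 by 4.15 ± 0.73 in C1qa (limma adjusted p = 0.0026), 4.18 ± 0.82 in C1qb (0.00512) and 3.62 ± 0.75 in C1qc (0.00734). Each of these calls held without any 1 array. Against HBEGF P7 the excess was 3.06 in C1qa (adjusted p = 0.00602), 3.24 in C1qb (0.00863) and 3.03 in C1qc (0.00775), although HBEGF P7 replicate 3 overlapped the withdrawn arrays in all 3. The C1qb call was lost without HBEGF P7 replicate 2, at 2.51 (adjusted p = 0.0515). All 3 calls over HBEGF P7 were lost in the fit on the arrays of those groups alone.

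Against fresh P7 the C1q excess in withdrawn P7 was smaller: 1.92 in C1qa (adjusted p = 0.0424), 2.26 in C1qc (0.0221) and 2.06 in C1qb (0.0513). The C1qa and C1qc calls were lost without fresh P7 replicate 2 or 3 or withdrawn P7 replicate 1 or 3, reaching adjusted p of 0.159 and 0.112. C1qb was called with quantile normalization (adjusted p = 0.0393), with median centring (0.0427) and without fresh P7 replicate 1 (0.0394).

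The 3 chains kept close step with each other, with r between 0.983 and 0.991 over the 21 arrays and between 0.979 and 0.980 over deviations from group means. With C3, C1s and Serping1 their r lay between 0.546 and 0.745. C3, C1s and Serping1 correlated among themselves at 0.909 to 0.940. These are descriptions over arrays that share groups and 1 normalization.

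The mean level of microglia and macrophage markers moved with C1q, although some of the markers did not. Of 20 listed, 18 had a probe set of their own. From serum P7 to withdrawn P7 11 were called higher and 1 lower (background 4.5% either way), with a median change of 1.60. Lyz2, a macrophage lysozyme, rose by 4.89, Fcer1g by 4.45 and Tyrobp, a signalling adaptor of microglia, by 3.51. The lower one, Tmem119, fell by 2.55, and Cx3cr1 and Aif1 stayed between group means of 6.16 and 6.71 and of 5.76 and 6.09 throughout. P2ry12 read 7.67, 7.18 and 6.32 in fresh P7 but only 5.52, 5.20 and 5.48 in withdrawn P7. Its serum P7 values were 5.22, 4.84 and 5.11. From fresh P7 to serum P7 2 markers were called higher and 6 lower (background 18.2% either way). From fresh P1 to fresh P7 2 were higher (background 1.55% either way).

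The summed intensity of the 18 markers ranged from 1461 to 1841 in fresh P1, 2403 to 5043 in fresh P7, 967 to 1101 in HBEGF P1 and 1455 to 1757 in MD. It ranged from 1212 to 5692 in HBEGF P7, where the highest array was replicate 3, the one with high C1q. It was 2608 to 3024 in serum P7 and 7306 to 25408 in withdrawn P7. A few markers carried these sums: Lyz2 made up 55.0% to 58.7% of them in withdrawn P7, and Tmem119 with Cd14, a receptor for bacterial lipopolysaccharide, 37.9% to 68.2% in serum P7. Without Lyz2 the sums ranged from 3288 to 10501 in withdrawn P7 and from 2078 to 2824 in serum P7.

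Over the 21 arrays the mean log2 level of these markers correlated with C1qa at r = 0.970, with C1qb at 0.974 and with C1qc at 0.988. Over deviations from group means r was 0.964, 0.959 and 0.982, and with HBEGF P7 left out (18 arrays) 0.969, 0.944 and 0.965. For C3, C1s and Serping1 r was 0.702, 0.608 and 0.671 over all arrays. Over deviations from group means it was 0.597, 0.626 and 0.611, and 0.124, 0.281 and 0.258 with HBEGF P7 left out. The part of microglia or macrophages in the complement changes was not tested.

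**Figure D4:**
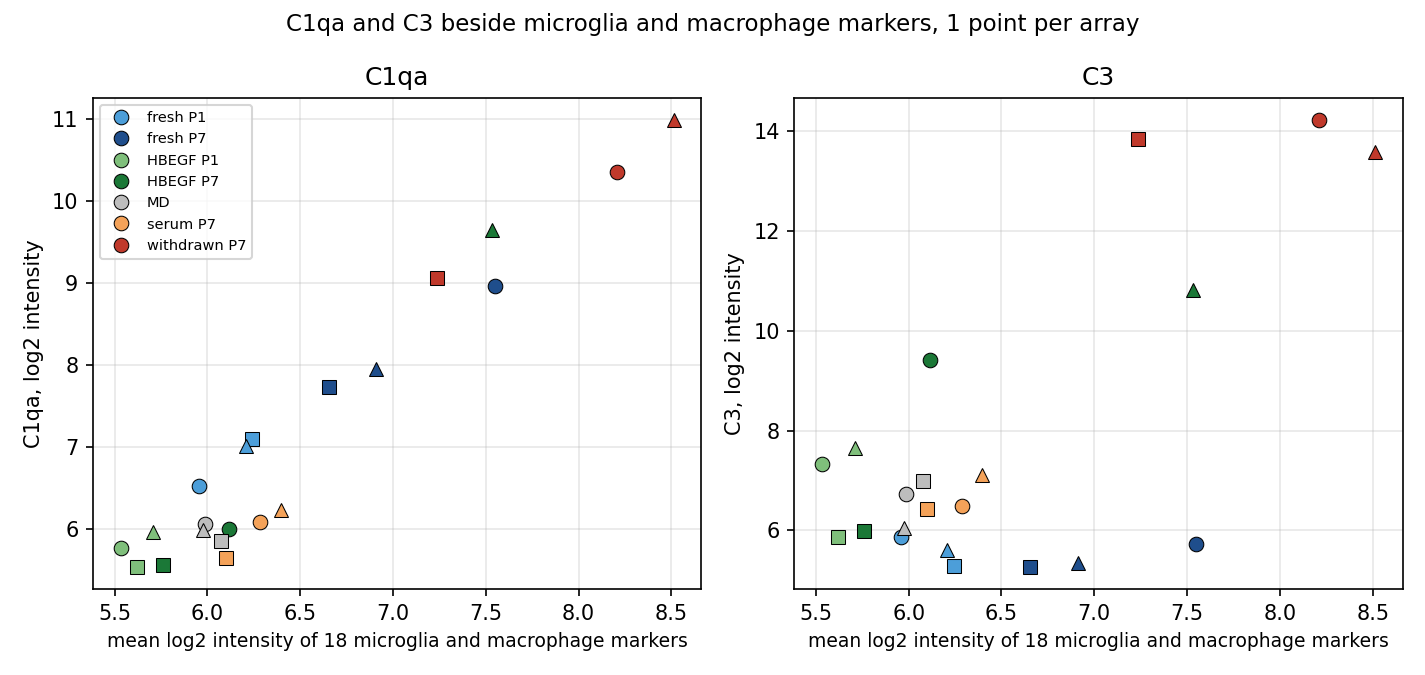
C1qa (left) and C3 (right), log2 intensity, against the mean log2 intensity of 18 microglia and macrophage markers, 1 point per array; colours are groups, and circles, squares and triangles are replicates 1, 2 and 3. C1qa rises with the marker mean over the arrays, but not alike in all groups. Serum P7 averages 6.26 for the markers with C1qa at 5.98, and fresh P1 averages 6.14 with C1qa at 6.87. For C3 the fresh P7 arrays have a marker mean up to 7.55 with C3 at or below 5.73.

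Markers of fibroblasts and meninges also differed between the groups. From serum P7 to withdrawn P7 0 of 12 were called by limma (background 4.5%) and 5 had an unadjusted p under 0.05. Among those 5 were Ptgds at 5.20 (adjusted p = 0.0641) and Igf2 at 3.21 (0.0895). Their summed intensity ranged from 8966 to 19160 in fresh P7, 8143 to 58696 in HBEGF P7, 56422 to 124460 in serum P7, 114050 to 142610 in withdrawn P7 and 6548 to 7428 in MD. Of the same 12, 8 were higher in withdrawn P7 than in HBEGF P7 (background 6.29%) and 10 than in fresh P7 (background 11.1%). In serum P7 7 were higher than in fresh P7 (background 9.12%). Within HBEGF P7 their mean log2 level was 10.86, 8.53 and 11.46 on replicates 1, 2 and 3, in the same order as C3, C1s and Serping1. Markers of microglia (6.12, 5.76 and 7.53), of neurons (7.45, 6.71 and 8.81) and of the oligodendrocyte lineage (7.03, 6.82 and 7.45) had that order too. Astrocyte markers (12.48, 11.95 and 12.41) and endothelial markers (5.57, 5.36 and 5.45) did not, being highest on replicate 1. The part of such cells in the changes of C3, C1s and Serping1 was not tested.

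Of 48 other complement genes listed, 37 had a probe set of their own. From serum P7 to withdrawn P7 7 of them rose and 0 fell (background 4.5% either way), with a median change of 0.24. Vitronectin (Vtn), a plasma and matrix protein that blocks assembly of the terminal complex, rose by 3.01 (limma adjusted p = 0.0202), and clusterin (Clu), with the same activity, by 1.80 (0.045). Cd55, which disassembles the enzymes that cut C3, rose by 1.74 (0.0102), factor D (Cfd), which cuts factor B, by 1.71 (0.0258) and C4bpb, a chain of the C4-binding inhibitor, by 1.51 (0.000139). The receptor genes Itgb2, an integrin subunit of complement receptors on leukocytes, and C5ar1, the C5a receptor, rose by 1.53 (0.00212) and 1.27 (0.00833). These last are also typical of myeloid cells.

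Against HBEGF P7 11 of the 37 were higher and 1 lower (background 11.7%), and against fresh P7 9 higher and 3 lower (background 22.1%). Colec12, a scavenger receptor of the collectin family, was higher than in HBEGF P7 by 2.93 (adjusted p = 0.0113), and Masp1, a protease of the lectin pathway, by 2.72 (0.0235). C1r was higher by 2.50 (0.00171). The protease Masp2 was lower by -1.01 (0.0185). Of 6 terminal-pathway genes none was called in any comparison with withdrawn P7, and 1, C8g, in any of the 14 comparisons (higher in serum P7 than in MD by 1.26, adjusted p = 0.000216).

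**Figure D5:**
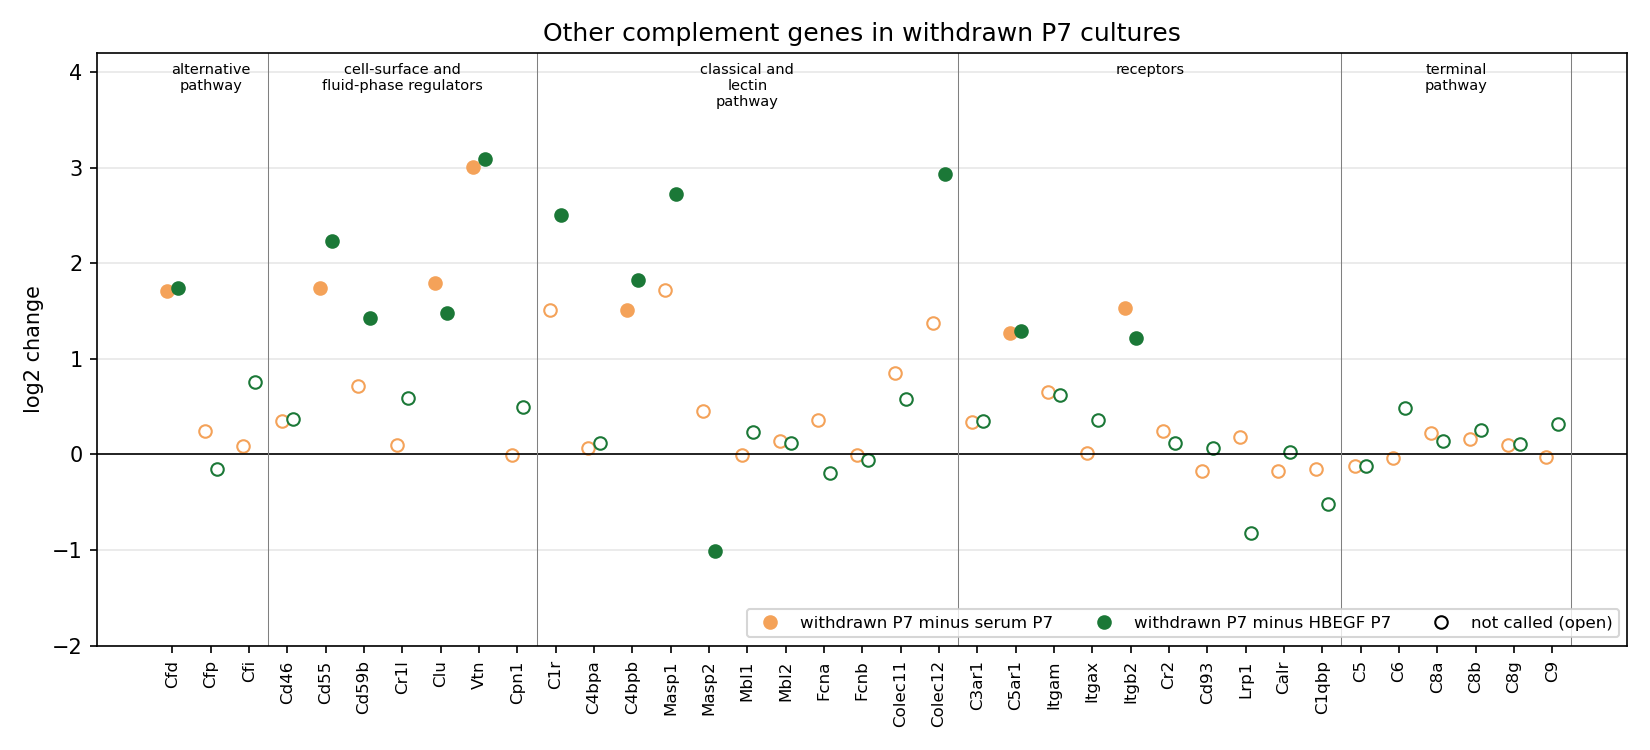
Log2 change (vertical axis) of 37 other complement genes in withdrawn P7 against serum P7 (orange) and against HBEGF P7 (green), grouped by role; filled points were called and open points were not. Vtn at 3.01 and 3.09 is the highest point of each colour, and the 6 terminal-pathway genes lie near 0.

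From fresh P1 to MD 3 of the 37 rose and 4 fell, a share near that of all genes (19.6%). Cd93, once described as a C1q receptor, rose by 3.17 (limma adjusted p = 1.63e-06) and Itgax, a subunit of complement receptor 4, by 1.83 (5.11e-07), while Masp1 fell by 3.40 (0.00342) and Colec12 by 3.10 (0.00423). Serum P7 cultures did not share the high Cd93 of MD, lying lower by -5.24 (3.61e-08). From fresh P7 to serum P7 3 rose and 3 fell, again near the share of all genes (18.2%), Colec12 gaining 3.07 (0.00486) and Cd59b, an inhibitor of the terminal complex, 1.68 (0.00708).

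A further list held 23 genes of the signalling known to induce complement genes, 21 of them measured. They were cytokines, receptors and transcription factors, together with Nfkbia and Socs3, which inhibit that signalling. From serum P7 to withdrawn P7 2 rose (background 2.24% higher). Il1b, the gene of interleukin-1 beta, gained 1.85 (limma adjusted p = 0.00553) and the NF-kappaB subunit Relb 1.32 (0.00119). Against HBEGF P7 4 were higher (background 6.29%): Nfkbia by 1.56, Il1b by 1.34, Irf1 by 1.11 and Cebpd by 1.06. From fresh P7 to HBEGF P7 1 rose and 8 fell (background 10.3% either way) while C3, C1s and Serping1 rose. The inhibitor genes Nfkbia, which NF-kappaB induces, and Socs3 fell by 2.20 (5.62e-05) and 1.75 (0.00455). The transcription factor gene Cebpb fell by 1.57 (0.000118).

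The 5 genes most like each complement gene were taken by Pearson r over the 21 arrays, among genes at or above the median level. For C3 they were Tcea3 (r = 0.947), Spint2 (0.938), Il3ra (0.928), Folr1 (0.923) and Slc6a8 (0.901). For Serping1 they were Cxcl16 (0.943), Spint2 (0.943), Aldh3b1 (0.942), Rbm43 (0.935) and Tcea3 (0.932). After C1r, C1s was most like Nupr1 (0.968), Ifgga2l1 (0.961), Slx1b (0.956) and Bst2 (0.953). Pf4 led for each C1q chain (r = 0.959 with C1qa, 0.965 with C1qb and 0.965 with C1qc), followed by Ctss, Rac2 and Fcer1g in varying order. Tmem17 was the fifth for C1qa and C1qb and Lyz2 for C1qc.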

How the data were processed

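RNA of 21 rat astrocyte samples was measured on Affymetrix rat expression arrays. Deposited values are linear intensities made with RMA, per the submitters' processing notes; which version and which probe definition were used is not stated in the sources used here. Log2 of these intensities was fitted with limma 3.58.1 in R 4.3.3, as 1 model of 7 group means (14 residual degrees of freedom), with Benjamini-Hochberg adjustment over 31042 probe sets. Called means adjusted p under 0.05 and a log2 change of at least 1. Of the probe sets 20826 carry 1 symbol, 436 several and 9780 none. Members and lists were chosen with earlier results of these data known, and the comparisons repeat arrays. The script was tested on simulated data. Exact permutation of 3 against 3 arrays cannot go below p = 0.1. Depth has no meaning for arrays: 3 per group limit the precision. Replicate numbers did not enter the model of 7 group means and were used only as a block among the alternatives. A pairing rule asked whether same-numbered arrays, as deviations from group means, correlated above 0.1 in every pair. It was met for HBEGF P1 or MD with fresh P1, HBEGF P7 or MD with HBEGF P1, and withdrawn P7 with serum P7. Named genes were the members, up to 6 called genes of a list by size of change, and the 5 most similar genes. Alternatives were an offset of 32, quantile normalization, median centring, removal of probe sets with mean log2 under 6, a trended robust variance, no fold limit, the compared arrays alone, a replicate block, and each array left out.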

Additional observations from a re-analysis of the deposited data

How the results depend on the processing

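All 24 called changes kept their sign under every alternative run; 8 were lost under some alternative other than leaving out an array, and 8 when some 1 array was left out. Of 30 member changes neither called nor printed, 19 changed sign under at least 1 alternative and 0 were ever called; the uncalled changes printed were chosen after these values were seen. Fitted on the arrays compared alone, the count of called genes (of 6) was 3 rather than 0 for HBEGF P1 against fresh P1, 0 rather than 3 for HBEGF P7 against fresh P7, 3 rather than 1 for MD against fresh P1, 5 rather than 2 for serum P7 against fresh P7 and 1 rather than 6 for withdrawn P7 against HBEGF P7. These fits hold fewer arrays; beyond that the cause was not tested.

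With the replicate number as a block the count was 1 rather than 0 for HBEGF P1 against fresh P1 and 1 rather than 0 for serum P7 against HBEGF P7, where the numbers did not meet the pairing rule; no other count moved by over 1.5 times, and withdrawn P7 against serum P7 kept 6. The block on the arrays compared alone, added after seeing the data, gave 5, 0, 3, 5 and 0 for the 5 comparisons above in the same order. Leaving out dim probe sets gave 1 for HBEGF P1 against fresh P1.

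Leaving out each array in turn gave counts of 0 to 2 for HBEGF P7 against HBEGF P1, 0 to 1 for MD against fresh P1, 0 to 1 for serum P7 against HBEGF P7, 1 to 3 for serum P7 against fresh P7, 3 to 6 for withdrawn P7 against fresh P7, and 0 to 1 for each of the tests of differing responses. With HBEGF P7 replicates 2 and 3 both left out, also added after seeing the data, the counts were 5 against fresh P7, 2 against HBEGF P1, 1 for serum P7 and 1 for the serum difference between preparations; the single array left is assumed to vary like the other groups. Using the mean of a gene's probe sets changes nothing, as each has 1. Values near the dim end, as C3 in fresh cells and C1q in most cultures, limit the folds.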
